A study of Mus musculus with 6 samples.

Results

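The genes described are 10 chemokines of the CC, XC and CX3C families: Ccl2, Ccl5, Ccl7, Ccl8, Ccl9, Ccl11, Ccl17, Ccl25, Xcl1 and Cx3cl1. They were chosen by gene name, and all 10 were found among the 49592 genes of the deposited table. Their RNA was measured by poly(A) RNA sequencing in C2C12, a mouse myoblast line that withdraws from the cell cycle and fuses into myotubes in low serum. All cultures were grown with 10% fetal bovine serum and kept for 3 days in 2% horse serum; 3 libraries came from cultures then given the TNF-family cytokine TWEAK at 10 ng/ml for 12 h, and 3 from untreated cultures, numbered as trials 1 to 3 in each group. Nothing in the labels tells whether the trials came from separate cultures. The p-values therefore reflect the spread between these libraries alone, which may be technical.

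Chemokines are small secreted proteins that guide leukocytes along concentration gradients by binding G protein-coupled receptors on them. The families are named for the spacing of conserved cysteines near the amino terminus: adjacent in CC chemokines and separated by 3 residues in CX3C, while XC chemokines lack a cysteine there. In injured muscle, CCL2 is known for recruiting CCR2-bearing monocytes, which clear debris and later aid regeneration. TWEAK acts through the receptor Fn14 and can activate both arms of NF-kB, a family of transcription factors that bind many chemokine promoters.

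The libraries held 29972858 to 40908138 reads, as recovered from the deposited values. Levels are in FPKM, a measure scaled for gene length and library size, so that genes of different length can be compared. In all 6 libraries the myotube markers were high: the 8 listed (among them Myog, Mymk, Des and Acta1) summed to 8781 to 9825 FPKM with TWEAK and to 9597 to 10676 FPKM without. Of these 8, 2 fell with TWEAK: Myh3, embryonic myosin heavy chain, to 0.599 times its untreated level (limma adjusted p = 0.00615), and Actn2, an actinin of the Z-disc, to 0.6 times (0.00813). Of 12770 genes with a mean of at least 0.5 FPKM, limma called 1147 higher (8.98%) and 779 lower (6.10%) with TWEAK at an adjusted p of 0.05. In bulk RNA, a change in the share of cells that express a gene and a change in RNA per cell cannot be told apart.

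Of the 10 chemokine genes, 6 were above the expression minimum in both groups, and of these 4 rose with TWEAK and 0 fell, beside 8.98% and 6.10% of all tested genes (limma, adjusted p of at most 0.05; at an unadjusted p under 0.05, 4 were higher and 0 lower, and limma-voom on recovered reads also called 4 and 0). Over all tested genes, 2168 were higher and 1703 lower at an unadjusted p under 0.05, and limma-voom called 1173 and 936. Among the 6 chemokine genes, Ccl2, Ccl7, Cx3cl1 and Ccl8 rose, while Ccl11 and Ccl25 did not pass. The other 4, Ccl5, Ccl9, Ccl17 and Xcl1, had untreated means below 0.5 FPKM and met the minimum only because they were high with TWEAK. Their tests in that fit therefore support nothing. They are described by their reads, and their adjusted p is taken from the limma fit with no expression minimum, in which all 4 also passed as higher. For Ccl2, Ccl7, Cx3cl1 and Ccl8 the lowest TWEAK library lay above the highest untreated one, and the same held for 20.0% of all tested genes. The groups of Ccl5, Ccl9, Ccl17 and Xcl1 also lay apart. Those 4 met the minimum through their TWEAK levels, so they are not set beside that share. Taken as log2(FPKM + 1), the fold changes of Ccl2, Ccl7 and Cx3cl1 ranked 1, 2 and 7 among the 12770 tested genes, and that of Ccl8 ranked 203. The order among the members depends on the constant added: with 0.1 in place of 1, Xcl1, Ccl5 and Ccl9 (5.84, 4.93 and 3.99) came before Ccl7 (3.38), and in limma-voom Xcl1 and Ccl5 (7.37 and 6.78) came before Ccl2 (5.99).

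**Figure D1:**
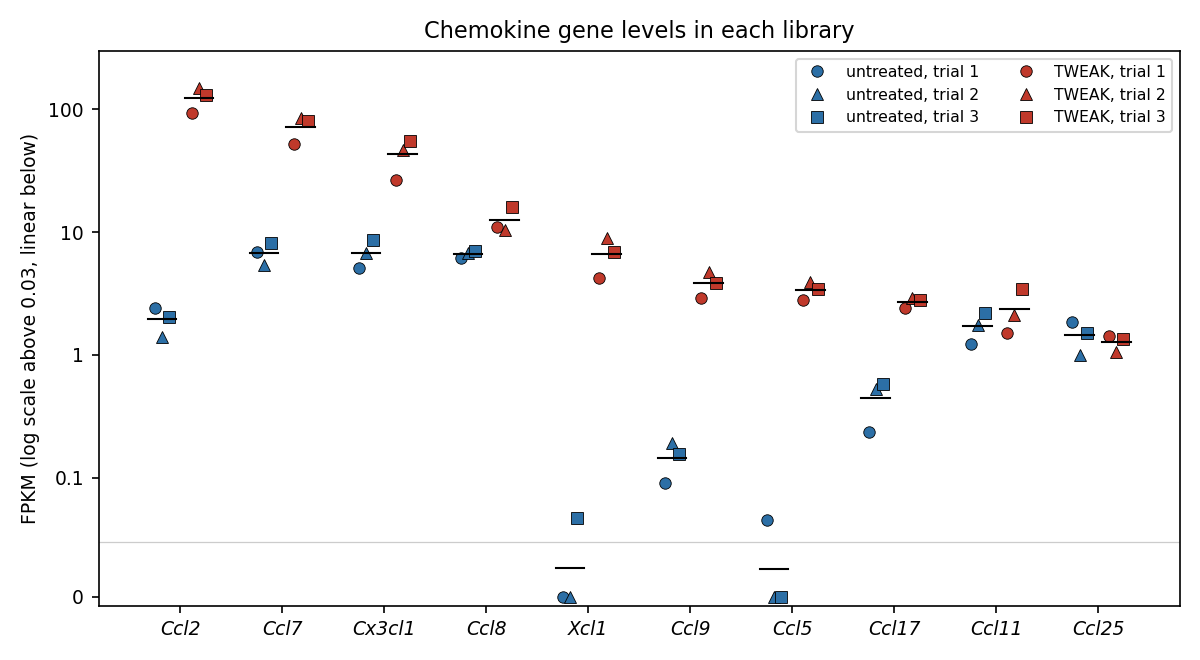
FPKM of the 10 chemokine genes (vertical axis, logarithmic above 0.03 and linear below) in each library; blue is untreated, red is TWEAK, symbols mark the trial and black bars the mean of 3 libraries. The 2 groups overlap for Ccl11 and Ccl25. All TWEAK libraries lie above all untreated ones for Ccl2, Ccl7, Cx3cl1 and Ccl8, as for 20.0% of all tested genes. They also do for Ccl5, Ccl9, Ccl17 and Xcl1, which met the expression minimum only through their TWEAK levels.

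Promoter sequences of 6 of the 10 genes were in the RefSeq table for GRCm38.p6, an earlier build than that of the expression table: Xcl1, Ccl25 (with 2 starts), Cx3cl1, Ccl17, Ccl8 and Ccl9. The 250 bases before each start were searched on both strands for the NF-kB consensus of 10 bases, for AP-1 (TGANTCA) and for TATAAA. The NF-kB consensus was present in 7.25% of all 32851 such promoters, AP-1 in 6.75% and TATAAA in 12.4%. Shown are Ccl9, which held all 3 motifs, Xcl1, which had the largest ratio of pooled reads, and the neighbours Cx3cl1 and Ccl17, each from 5′ to 3′ on the gene's strand with matches in capitals. Ccl9 is from chr11:83578637-83578886 (minus strand), Xcl1 from chr1:164935523-164935772 (minus), Cx3cl1 from chr8:94771930-94772179 (plus) and Ccl17 from chr8:94810203-94810452 (plus).
Ccl9: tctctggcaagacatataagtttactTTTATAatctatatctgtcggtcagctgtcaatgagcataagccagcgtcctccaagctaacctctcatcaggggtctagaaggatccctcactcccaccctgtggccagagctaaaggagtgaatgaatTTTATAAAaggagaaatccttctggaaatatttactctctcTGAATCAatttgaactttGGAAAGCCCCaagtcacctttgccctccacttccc
Xcl1: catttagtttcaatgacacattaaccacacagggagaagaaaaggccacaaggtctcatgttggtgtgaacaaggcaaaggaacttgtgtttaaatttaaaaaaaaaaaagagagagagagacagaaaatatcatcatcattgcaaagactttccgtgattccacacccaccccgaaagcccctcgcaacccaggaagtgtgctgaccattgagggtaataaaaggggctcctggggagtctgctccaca
Cx3cl1: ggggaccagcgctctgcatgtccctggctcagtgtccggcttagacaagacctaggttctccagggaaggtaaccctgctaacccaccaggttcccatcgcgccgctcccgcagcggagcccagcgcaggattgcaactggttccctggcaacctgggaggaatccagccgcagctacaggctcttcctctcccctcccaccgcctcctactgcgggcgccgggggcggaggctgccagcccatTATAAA
Ccl17: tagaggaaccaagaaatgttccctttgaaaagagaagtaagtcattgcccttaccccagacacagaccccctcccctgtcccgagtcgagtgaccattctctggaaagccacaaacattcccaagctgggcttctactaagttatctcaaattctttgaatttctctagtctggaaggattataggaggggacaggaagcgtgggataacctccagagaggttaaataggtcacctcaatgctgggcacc
In Ccl9 the NF-kB match GGAAAGCCCC lies at -35 to -26 from the start and the AP-1 match at -53 to -47, and TATAAA or its reverse complement occurs at -224, -94 and -92. Cx3cl1 holds TATAAA at -6 to -1, and of the promoters not shown, Ccl8 holds it at -32 to -27 and the second start of Ccl25, a gene that did not pass, at -16 to -11. Over the 7 starts of these 6 genes, 4 held TATAAA, 1 the NF-kB consensus and 1 AP-1. Xcl1 and Ccl17 held none of these letters in this window. A match describes the sequence and is not evidence of binding.

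Ccl2 and Ccl7 encode monocyte chemoattractants that share the receptor CCR2. Ccl2 (ENSMUSG00000035385.6, GRCm39 chr11:81926397-81928279) stood at 93.6, 150 and 131 FPKM in TWEAK replicates 1, 2 and 3 and at 2.43, 1.39 and 2.05 FPKM in untreated replicates 1, 2 and 3. The groups were far apart, and within each the libraries differed by less than 2-fold. The means were 125 ± 28.8 and 1.95 ± 0.526 FPKM (SD, n = 3), a 64.0-fold difference. Taken as log2(FPKM + 1), on which all log2 values of the fits below are given, the groups differed by 5.40 (SE 0.18, limma adjusted p = 1.61e-06). Among the tested genes, ordered by level, Ccl2 stood at rank 10393 in untreated and at rank 483 in TWEAK libraries. It rested on 3120, 5726 and 4286 recovered reads with TWEAK and on 88, 50 and 91 without.

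Ccl7 (chr11:81936538-81938351) was at 51.8, 85.0 and 79.9 FPKM with TWEAK and at 6.83, 5.36 and 8.22 FPKM without. It was thus already expressed in untreated myotubes, and TWEAK replicate 1 was the lowest of the treated libraries, as for Ccl2. The difference was 10.6-fold (3.21 on the log2 scale, SE 0.19, with an adjusted p of 2.08e-05 in limma). The order of this pair reversed between the groups. Ccl2 was at 0.355, 0.259 and 0.249 times the Ccl7 level in untreated libraries and at 1.81, 1.77 and 1.64 times that level with TWEAK. On the log2 scale the ratio differed by 2.61 between the groups. Its exact two-sided permutation p was 0.1 (0.2 adjusted over 4 pairs of neighbouring genes), and 0.1 is the smallest p that 3 libraries against 3 allow.

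Downstream of this pair on chromosome 11 lie Ccl11 and Ccl8, whose products are known as chemoattractants of eosinophils and, for mouse CCL8, of cells that carry CCR8. Ccl8 (chr11:82006011-82007625) was at 11.1, 10.4 and 15.9 FPKM with TWEAK and at 6.15, 6.79 and 7.0 FPKM without. Its groups did not overlap, but its 1.87-fold difference was the smallest of the 4 that rose (0.80 on the log2 scale, SE 0.14, with an adjusted p of 0.0059 in limma). Its call ended under an alternative setting: with no expression minimum, which roughly doubles the number of genes tested, its limma adjusted p was 0.0527.

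Ccl11 (chr11:81948649-81953781), the gene of eotaxin-1, was at 1.52, 2.13 and 3.44 FPKM with TWEAK and at 1.23, 1.74 and 2.19 FPKM without. The groups overlapped, and in both of them trial 1 was lowest and trial 3 highest. The fitted log2 difference was 0.28 (SE 0.20, limma adjusted p = 0.38). When trials entered the limma fit as a replicate block, Ccl11 passed at an adjusted p of 0.0307. Its TWEAK library was 1.24-, 1.2- and 1.57-fold above the untreated one in trials 1, 2 and 3. Without TWEAK replicate 3 the log2 difference was 0.06 (limma adjusted p = 0.849).

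These 4 genes stand in a row of 81.2 kb in the deposited coordinates, with Ccl12, the gene of another CCR2 ligand, between Ccl11 and Ccl8. The gaps were 8.26 kb from Ccl2 to Ccl7, 10.3 kb from Ccl7 to Ccl11, 38.9 kb from Ccl11 to Ccl12 and 11.8 kb from Ccl12 to Ccl8. Along that row the folds were 64.0, 10.6 and 1.37 for Ccl2, Ccl7 and Ccl11, Ccl12 was listed at 0 in every library, and Ccl8 was at 1.87. The Ccl7 to Ccl11 ratio was 34.1, 40.0 and 23.2 with TWEAK against 5.56, 3.07 and 3.76 without (exact two-sided permutation p = 0.1, adjusted 0.2). The Ccl11 to Ccl8 ratio was 0.136, 0.205 and 0.217 against 0.200, 0.257 and 0.313, ranges that overlap (exact permutation p = 0.3, adjusted 0.4). Within each trial, however, this ratio was lower with TWEAK. Ccl1, at the far end of the row, was at 0 in all libraries.

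**Figure D2:**
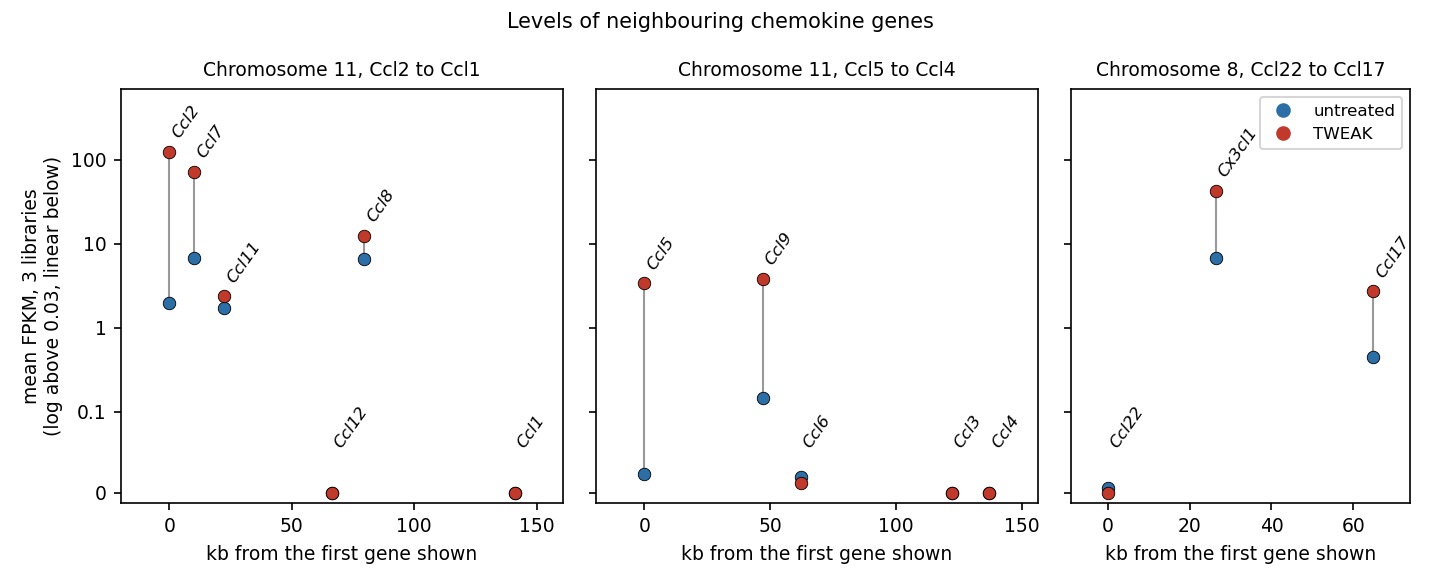
Mean FPKM of 3 untreated (blue) and 3 TWEAK (red) libraries for neighbouring chemokine genes, against distance from the first gene shown; a grey line joins the means of a gene, and where both are 0 the red point covers the blue one. In the left panel the groups lie 64.0-fold apart at Ccl2, 10.6-fold at Ccl7 and 1.37-fold at Ccl11, and Ccl12 and Ccl1 lie at 0. In the middle panel Ccl3 and Ccl4 lie at 0.

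A second group on chromosome 11, 1.41 Mb further on, holds Ccl5 and Ccl9. Ccl5 (chr11:83416604-83421344) encodes RANTES, which attracts T cells and monocytes through receptors that include CCR1 and CCR3. It was at 2.81, 3.92 and 3.42 FPKM with TWEAK and at 0.0452, 0 and 0 FPKM without. It was thus detected in all 3 TWEAK libraries and, with a single read, in untreated replicate 1 alone. The pooled reads were 216 against 1, a ratio of 242 after scaling for depth (95% exact binomial interval 43.0 to 9610, counting error only), and with no expression minimum the limma adjusted p was 0.0016.

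Ccl9 (chr11:83463745-83469462) encodes a mouse chemokine that acts through CCR1 and is known for attracting myeloid cells and osteoclast precursors. It was at 2.92, 4.75 and 3.83 FPKM with TWEAK and at 0.0905, 0.192 and 0.156 FPKM without, and it was detected in every library. Its 1106 pooled reads against 47 gave a ratio of 26.4 (interval 19.7 to 36.1). The adjusted p of Ccl9 in limma with no expression minimum was 0.00396. Ccl5 and Ccl9 ended at similar levels with TWEAK, and their ranges there overlapped. Ccl6, 9.25 kb beyond Ccl9, was at no more than 0.0233 FPKM in any library, and Ccl3 and Ccl4 were at 0 in all 6.

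Cx3cl1 and Ccl17 are neighbours on chromosome 8, with 28.0 kb between them. Cx3cl1 (chr8:95498637-95509055) encodes fractalkine, a chemokine on a membrane-anchored mucin stalk that can hold leukocytes by adhesion or be shed as a soluble attractant. It was at 26.6, 46.7 and 55.4 FPKM with TWEAK and at 5.06, 6.74 and 8.62 FPKM without. In both groups trial 1 was lowest and trial 3 highest, so the folds within trials (5.25, 6.92 and 6.42) were closer together than the levels. The overall difference was 6.30-fold (2.45 on the log2 scale, SE 0.25, with an adjusted p of 0.000403 in limma).

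Ccl17 (chr8:95537081-95538664) encodes TARC, a ligand of CCR4 on T helper and regulatory T cells. It was at 2.43, 2.91 and 2.81 FPKM with TWEAK and at 0.235, 0.533 and 0.576 FPKM without. The treated libraries lay close together, and the untreated ones rested on 25 reads in all. Pooled over libraries, the reads gave a ratio of 5.97 (interval 3.87 to 9.55). In the limma fit without an expression minimum its adjusted p was 0.00673. The Cx3cl1 to Ccl17 ratio was 10.9, 16.0 and 19.7 with TWEAK and 21.5, 12.6 and 15.0 without, which is a log2 difference of -0.08 that lies within the spread (exact permutation p = 0.8, adjusted 0.8). Ccl22, the gene of the other CCR4 ligand and 20.3 kb from Cx3cl1, was at 0 in 5 libraries and at 0.0111 FPKM in untreated replicate 3.

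Xcl1 (chr1:164759213-164763096) encodes lymphotactin, made mainly by activated T and NK cells, which attracts XCR1-bearing dendritic cells. It was at 4.27, 8.91 and 6.87 FPKM with TWEAK and at 0, 0 and 0.0472 FPKM without. All 3 TWEAK libraries held it, with 68, 162 and 107 reads, while 1 read was found in the untreated group. Scaled for depth, these reads stood in a ratio of 378 (interval 67.4 to 14968). Fitted by limma with no expression minimum, Xcl1 had an adjusted p of 0.00524. Of 8 T and NK lymphocyte markers, Cd3e, Cd3d, Cd8a, Cd4, Nkg7 and Ncr1 were at 0 in all libraries, and the whole list summed to at most 0.0665 FPKM with TWEAK and 0.0571 FPKM without.

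Ccl25 (chr8:4375210-4410020) encodes TECK, a ligand of CCR9 best known from thymus and small intestine. It was at 1.42, 1.06 and 1.36 FPKM with TWEAK and at 1.86, 1.00 and 1.52 FPKM without. The groups overlapped and the log2 difference was -0.10 (SE 0.13, limma adjusted p = 0.666), with a higher TWEAK library in trial 2 and a lower one in trials 1 and 3. Its position overlaps that of Elavl1 (10.9 against 10.6 FPKM), and whether counting used strand is not given in the sources used here, so reads of the 2 genes may not be separated. Ccl2 and Xcl1 also overlap annotated genes, Gm17268 at 0 in all libraries and Gm20743 at 0.00339 FPKM with TWEAK and 0.0224 FPKM without.

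**Figure D3:**
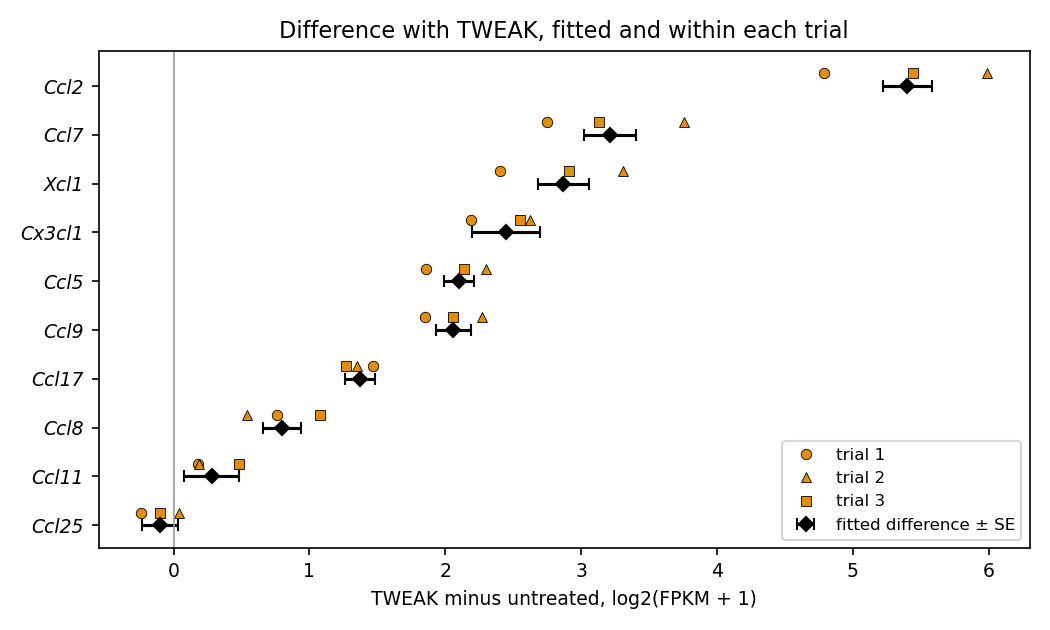
Difference between TWEAK and untreated on the log2(FPKM + 1) scale (horizontal axis) for each gene; black diamonds are the fitted differences with their SE, and orange symbols the difference within each trial. Ccl2 is at 5.40 and Ccl25 at -0.10, and the trials of Ccl25 lie on both sides of 0.

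The order of the 10 genes by level changed with treatment. Their means ran from 0.0151 to 6.81 FPKM in untreated libraries and from 1.28 to 125 FPKM with TWEAK. In untreated libraries Cx3cl1, Ccl7 and Ccl8 led at 6.81 ± 1.78, 6.80 ± 1.43 and 6.65 ± 0.441 FPKM (SD, n = 3), and neither neighbouring pair in that order differed beyond its ranges. Ccl2, Ccl11 and Ccl25 followed at 1.95, 1.72 and 1.46 FPKM, again with overlapping ranges between neighbours. Ccl17, Ccl9, Xcl1 and Ccl5 were below 0.5 FPKM. With TWEAK the order was Ccl2, Ccl7, Cx3cl1, Ccl8, Xcl1, Ccl9, Ccl5, Ccl17, Ccl11 and Ccl25; the ranges of Ccl7 and Cx3cl1 overlapped, as did those of each neighbouring pair from Xcl1 down to Ccl11.

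Summed over the 10 genes, the level was 198, 316 and 304 FPKM with TWEAK and 23.9, 23.7 and 30.4 FPKM without, a 10.5-fold difference of the means. Ccl2 took 46.0 ± 2.43% of that sum with TWEAK and 7.58 ± 2.27% without (SD, n = 3). Ccl7 kept a near-constant share, 26.4 ± 0.435% and 26.1 ± 3.12%. Ccl8 went from 25.8 ± 2.78% without TWEAK to 4.70 ± 1.25% with it, and Cx3cl1 from 26.0 ± 4.18% to 15.5 ± 2.48%.

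The treated libraries did not stand at the same levels. TWEAK replicate 1 was the lowest of the 3 for 8 of the 10 genes, whereas it was lowest for 37.8% of all tested genes. The exceptions were Ccl8 and Ccl25, both lowest in TWEAK replicate 2. Untreated replicate 1 was in turn the lowest untreated library for 6 of the 10 genes, beside 32.1% of all tested genes. For Xcl1 it was tied at 0 with untreated replicate 2. The fold for Ccl2 was 38.6 in trial 1, 108 in trial 2 and 64.1 in trial 3, and that for Ccl7 was 7.58, 15.9 and 9.71. Xcl1 in TWEAK replicate 1 was likewise the lowest at 4.27 FPKM and in replicate 2 the highest at 8.91 FPKM. The folds of Ccl9 (32.3, 24.7 and 24.6 in trials 1, 2 and 3) and of Ccl17 (10.3, 5.46 and 4.88) were instead largest in trial 1. In every fit that left out 1 of the 6 libraries, Ccl2, Ccl7, Cx3cl1 and Ccl8 passed.

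In the authors' deposited table, 8 of the 10 genes have an adjusted p under 0.05 and Ccl11 and Ccl25 do not (0.382 and 0.619). The 8 include Ccl5, Ccl9, Ccl17 and Xcl1, which rested on 1, 47, 25 and 1 untreated reads. The share of all genes that pass in that deposited comparison was not worked out, so the count has no background here. The log2 fold changes listed there are 8.43 for Xcl1, 7.80 for Ccl5, 6.0 for Ccl2 and 4.71 for Ccl9. Their standard errors there are 1.23 for Xcl1, 1.2 for Ccl5, 0.28 for Ccl2 and 0.33 for Ccl9. The order of Xcl1, Ccl5 and Ccl2 in the deposited table differs from that on the log2(FPKM + 1) scale, where Ccl2 leads. Limma-voom on recovered reads had the order of the deposited table, at 7.370, 6.784 and 5.985 for Xcl1, Ccl5 and Ccl2. The reason for the different order was not tested.

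The other CC ligand genes were nearly silent. Of 16 such genes in the table, 10 were at 0 in all 6 libraries: Ccl1, Ccl3, Ccl4, Ccl12, Ccl19, Ccl21a, Ccl21b, Ccl21d, Ccl26 and Ccl27b. The other 6 (Ccl6, Ccl20, Ccl22, Ccl24, Ccl27a and Ccl28) reached at most 0.0248 FPKM in any library, and none met the expression minimum. For a gene of 1 kb, 3 reads stand for 0.074 to 0.101 FPKM at these depths. The Ccl21 and Ccl27 genes have near-identical copies whose reads may be set aside in counting, so their zeros are uncertain.

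Transcripts of the receptors were scarce. Of 17 receptor genes, 6 were at 0 in all libraries (Ccr2, Ccr4, Ccr6, Ccr8, Xcr1 and Ccr1l1), and 16 lay below the expression minimum. The genes of CCR2, CCR4 and XCR1, receptors of CCL2, CCL17 and XCL1, were thus not detected at this depth, and Cx3cr1, the fractalkine receptor gene, was at 0.0203 to 0.0384 FPKM. Only Ackr3, an atypical receptor of CXC chemokines, could be tested. It was at 4.79, 4.42 and 5.51 FPKM with TWEAK and at 6.32, 5.97 and 5.64 FPKM without (-0.24 on the log2 scale, SE 0.09, with an adjusted p of 0.0974 in limma). With the replicate block it passed as lower (0.039), and without TWEAK replicate 3 likewise (0.0387); its adjusted p in the authors' deposited table is 0.0382. At an unadjusted p under 0.05, limma had 0 receptors higher and 1 lower, and limma-voom called 0 and 0. The counts for all tested genes were 2168 and 1703, and 1173 and 936.

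Among the receptors too low to test, Ccr7 and Ackr4 differed most clearly in level; both were singled out after their values were seen. Ccr7, the receptor of CCL19 and CCL21 that guides lymphocytes and dendritic cells to lymph nodes, was at 0.432, 0.567 and 0.679 FPKM with TWEAK and at 0.0153, 0.0154 and 0.0374 FPKM without. The pooled reads were 105 against 5 (ratio 23.5, 95% exact binomial interval 9.78 to 74.0), and with no expression minimum its limma adjusted p was 0.00932. Ackr4, a scavenger of CCL19, CCL21 and CCL25, was at 0.244, 0.192 and 0.149 FPKM with TWEAK and at 0.571, 0.564 and 0.530 FPKM without. Its pooled reads, 50 against 159, gave a ratio of 0.353 (interval 0.251 to 0.487). With no expression minimum its limma adjusted p was 0.0137. For Ccr9, the signalling receptor of CCL25, the range was 0.0443 to 0.0646 FPKM with TWEAK and 0.0468 to 0.166 FPKM without, and the groups overlapped.

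**Figure D4:**
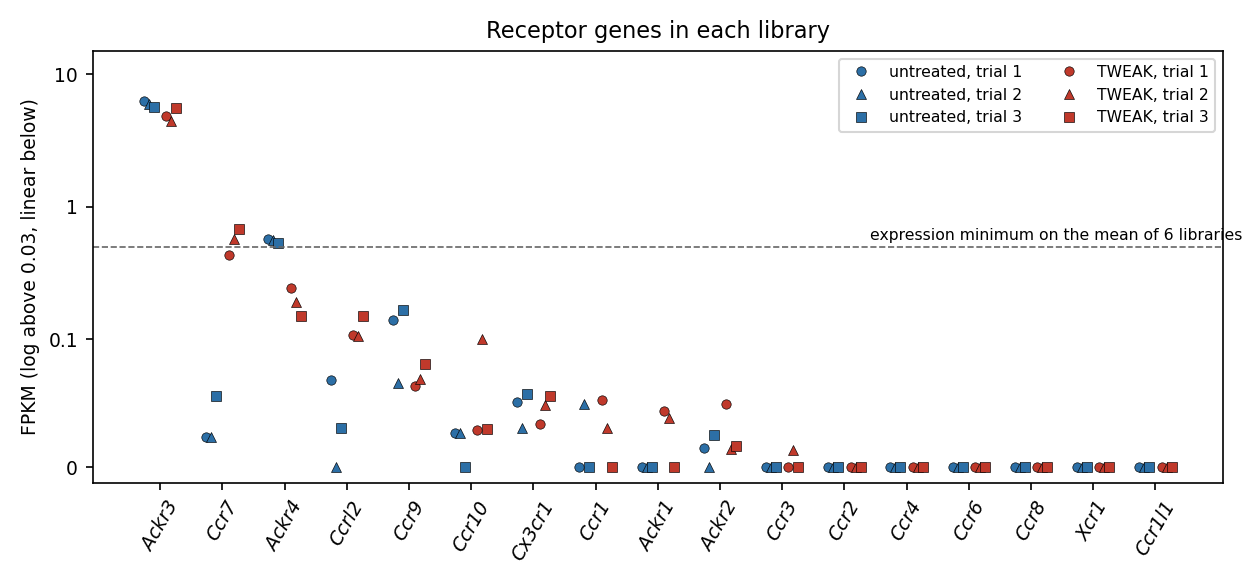
FPKM of the 17 receptor genes (vertical axis, logarithmic above 0.03 and linear below) in each untreated (blue) and TWEAK (red) library, with symbols for the trial and a dashed line at 0.5 FPKM. Ackr3 lies above the line in all libraries, Ccr7 is higher and Ackr4 lower with TWEAK, and the 6 genes on the right lie at 0.

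Of 6 tested proteases and adaptors that shed or trim chemokines, 1 rose and 0 fell, beside 8.98% and 6.10% of all tested genes (2 higher and 0 lower at an unadjusted p under 0.05; limma-voom, 1 and 0; with the replicate block, 2 and 0). The sheddases of fractalkine were among those that did not pass: Adam10 was at 28.2, 27.7 and 27.7 FPKM with TWEAK and at 26.4, 26.2 and 27.6 FPKM without (limma adjusted p = 0.539), and the limma adjusted p of Adam17 was 0.443. Rhbdf2, an adaptor that brings ADAM17 to the cell surface, rose 1.72-fold (0.63 on the log2 scale, SE 0.10, with an adjusted p of 0.00414 in limma). Mmp2 and Mmp14, which can cleave CCL7, did not pass (limma adjusted p of 0.625 and 0.661). Among all tested genes, 2168 were higher and 1703 lower at an unadjusted p under 0.05. There limma-voom called 1173 and 936, and the replicate block 1965 and 1598.

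Of 17 tested genes for heparan sulfate, the polysaccharide that holds chemokines at cell surfaces and in matrix, 0 rose and 2 fell, beside the same shares of 8.98% and 6.10% over all tested genes (2 higher and 4 lower at an unadjusted p under 0.05; limma-voom, 0 and 3; with the replicate block, 2 and 3). For all tested genes the counts were 2168 higher and 1703 lower at an unadjusted p under 0.05. They were 1173 and 936 in limma-voom and 1965 and 1598 with the replicate block. The glypican gene Gpc6 was at 5.03, 5.21 and 4.47 FPKM with TWEAK and at 6.11, 6.73 and 6.76 FPKM without (limma adjusted p = 0.0188). The sulfotransferase gene Hs3st1 went from 4.36, 6.15 and 5.97 FPKM to 2.96, 3.10 and 4.48 FPKM (limma adjusted p = 0.0425), with overlapping groups. With no expression minimum neither passed (0.0655 and 0.165). Leaving out untreated replicate 2 or 3 ended both calls (0.0724 and 0.0607 for Gpc6, 0.149 and 0.124 for Hs3st1), and leaving out TWEAK replicate 1 or 2 ended that of Hs3st1 (0.0902 and 0.14).

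Of 16 genes of NF-kB subunits, kinases, feedback inhibitors and the TWEAK receptor, 10 rose and 0 fell, beside 8.98% and 6.10% of all tested genes (11 higher and 0 lower at an unadjusted p under 0.05; limma-voom, 10 and 0). The smallest adjusted p values were those of the inhibitor genes Nfkbie and Nfkbia, up 11.1- and 3.59-fold, and of Nfkb2, the p100 subunit gene, up 3.52-fold. The receptor gene Tnfrsf12a did not pass (limma adjusted p = 0.937). The list was named with earlier results of these data known. Unadjusted, 2168 of all tested genes were higher and 1703 lower at a limma p under 0.05. The limma-voom counts were 1173 and 936.

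Around the 10 genes, 44 other genes lay within 100 kb of a member. Of these, 15 were tested; 1 rose and 1 fell, against the 8.98% and 6.10% of all tested genes. Ciapin1, which encodes a cytosolic iron-sulfur cluster assembly factor and lies 7768 bases from Ccl17, was at 26.9 FPKM with TWEAK and 21.7 FPKM without (log2 fold change 0.30, limma adjusted p = 0.014). Mmp28, a matrix metalloproteinase gene 62707 bases from Ccl5, was at 2.56 against 3.79 FPKM (log2 fold change -0.43, limma adjusted p = 0.0126). Without untreated replicate 2 neither passed (0.0503 and 0.0571), Mmp28 also did not with no expression minimum (0.0678), and Ciapin1 also did not without TWEAK replicate 2 (0.054). Taf15, which lies 19035 bases from Ccl5, did not pass (limma adjusted p = 0.111).

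Markers of other cells that can make these chemokines differed in level. Of 8 macrophage markers, Adgre1, Fcgr1 and Tyrobp were at 0 in all libraries, and the list summed to 1.51 to 1.80 FPKM with TWEAK and 1.66 to 1.77 FPKM without, most of it from Cd68, which at 1.18 to 1.47 FPKM was near the level of Ccl25. Of 4 dendritic cell markers, Itgax, Flt3 and Xcr1 were at 0, and the list summed to 0.412 to 0.520 FPKM against 0.325 to 0.427 FPKM. The 5 endothelial markers summed to 0.140 to 0.214 FPKM against 0.169 to 0.210 FPKM. Fibroblast markers were uneven: the 5 listed summed to 61.5 to 95.3 FPKM with TWEAK and to 81.3 to 117 FPKM without. Most came from Pdgfrb (mean 45.5 FPKM with TWEAK and 69.6 FPKM without) and Dcn (25.4 and 27.2). Pdgfra (1.94 and 1.81), Lum (1.27 and 1.61) and Thy1 (0.0166 and 0.00474) were low. Of the 4 tested, 0 rose and 1 fell in limma (Pdgfrb), beside 8.98% and 6.10% of all tested genes. The 4 markers of thymic or gut epithelium summed to 0.507 to 0.753 FPKM with TWEAK and to 0.899 to 1.19 FPKM without, mostly from Cdh1, which fell (0.571, 0.480 and 0.424 against 0.853, 0.982 and 1.05 FPKM, limma adjusted p = 0.0182). The part of fibroblast-like, unfused or other cells in the chemokine levels was not tested.

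For each chemokine, the genes outside the families most like it over the 6 libraries were picked from the tested genes. Such a choice of the highest values among many genes by itself favours a high correlation. For each member, the 3 tested genes with the highest Pearson r of log2(FPKM + 1) had r from 0.971 to 0.999; the 6 points come from 2 groups and all genes share the libraries. For the members whose groups lie apart, such an r also holds the difference between groups. For Ccl2 these were Znrf1, Traf2 and Prkcd, with folds of 1.52, 1.88 and 1.56. AU020206 was among the 3 for Ccl7, Ccl9 and Xcl1 (5.58-fold), Rnf19b for Ccl5 and Xcl1 (2.04-fold), and Angptl4 led for Cx3cl1 (3.64-fold). Ache, the acetylcholinesterase gene, was among those of Ccl5 (12.4-fold), and Abcb1b, a drug efflux pump gene, led for Ccl17 (3.01-fold).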

How the data were processed

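RNA of C2C12 cultures was sequenced after poly(A) selection in 3 TWEAK and 3 untreated libraries, per the labels' protocols. The submitters' processing notes name HTSeq 0.6.1p2, STAR 2.6.0c, DESeq2 1.22.2 and Trim Galore 0.5.0, and the build GRCm39. For settings, annotation release and strand, nothing is stated in the sources used. Per the file headers, the deposited table gives FPKM for each library and the authors' own comparison: a mean normalized signal, a log2 fold change and its error, a score that is the test's statistic, and p-values. From the values, the deposited FPKM carry a size factor per library. The authors' mean is above 0 for 2337 genes at 0 in all 6 libraries; the reason is not given in the sources that were used.

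Genes with a mean of at least 0.5 FPKM were tested with limma 3.58.1 (R 4.3.3), using a mean-variance trend on log2(FPKM + 1), group as the only term and two-sided p-values adjusted by Benjamini-Hochberg over all 12770 genes at 0.05. Reads were recovered from the steps of the FPKM values: at a relative tolerance of 1e-06, 99.9% of the 126386 non-zero values were whole. Gene lengths were picked so that the reads came out whole, so that share is not a check of the reads. The recovered reads gave depth, exact 95% binomial intervals of pooled reads (counting error only) and a limma-voom alternative. Where several gene lengths fitted, as for 17919 genes, the one closest to the deposited mean was taken. The fits were also run on simulated reads, with the same spread set for every gene. The outcome is not given here, so that run does not vouch for the fits.

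The replicate block pairs libraries by the trial numbers of the labels, which do not say what a trial shares. Deviations from group means correlated at 0.473, 0.218 and 0.434 across genes within trials 1, 2 and 3. Between libraries of different trials in the 2 groups they correlated at -0.406 to -0.02. The blocked fit is given where it changes a call. Python 3.11.15, numpy 2.4.6, pandas 2.3.3, scipy 1.17.1 and matplotlib 3.10.9 were used. Named were all members, up to 3 risen and 3 fallen genes of each list, tested receptors, neighbours within 100 kb that passed, and the 3 genes most like each member; others were chosen after their values were seen. The members and lists were chosen with earlier results of these data known. The planned treatment of members below the expression minimum was applied to the 4 members whose untreated mean lay below it, since none had an overall mean below it. The number of per-sample columns without a sample was 0. A gene of the receptor list is not reported here.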

Additional observations from a re-analysis of the deposited data

How the results depend on the processing

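Of the 6 chemokine genes above the minimum in both groups, 4 were called higher in the reported fit and in limma-voom, and 5 with the replicate block. With no expression minimum Ccl8 did not pass (limma adjusted p = 0.0527). The 4 genes that met the minimum only through their TWEAK libraries add no support. Counted with them, the number was 8 in the reported fit, 7 with no expression minimum and 9 with the replicate block. It was 8 under each other alternative (pseudocounts of 0.1 and 0.5, a minimum of 1 FPKM, quantile normalization, limma-voom on recovered reads, and leaving out each library). The number that fell was 0 in all. The block changed no other call among the members than that of Ccl11. Quantile normalization moved the median log2 fold change of all tested genes from 0.011 to -0.01. Of all tested genes, 1128 rose and 762 fell with a pseudocount of 0.1, and 1147 and 779 with 0.5. A minimum of 1 FPKM gave 1115 and 784, quantile normalization 1071 and 921, and limma-voom 1173 and 936. Over all tested genes, 499 rose and 302 fell with no minimum and 1965 rose and 1598 fell with the replicate block, against 1147 and 779; leaving out single libraries gave 501 to 1266 and 343 to 835, with 501 and 343 without TWEAK replicate 2, 640 and 459 without untreated replicate 1, 705 and 399 without untreated replicate 2, and 741 risen without untreated replicate 3. Among receptors, 1 rose and 1 fell with no minimum, 1 fell with the replicate block, and 0 to 1 fell when single libraries were left out. With the replicate block, 2 protease genes and 2 heparan sulfate genes rose. Heparan sulfate genes fell in 0 cases with no minimum and in 0 to 3 without single libraries. The sign changed, at no call, for Ccl25 without untreated replicate 1 (0.017, range -0.24 to 0.017) and for Tnfrsf12a without TWEAK replicate 1 (0.06), TWEAK replicate 2 (0.022) or untreated replicate 2 (0.056; range -0.137 to 0.06). The cause was not tested. The ratios of pooled reads ranged from 150 to 262 for Ccl5 and from 260 to 444 for Xcl1 without single libraries; without the untreated library that held their only read, no ratio could be formed. Depth limits these 2 genes: 1 untreated read each.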

Other observations

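A long noncoding RNA gene, Gm31522, ends 15604 bases before Ccl2 in the deposited coordinates (chr11:81873945-81910793) and lay below the expression minimum. It was at 0.690, 0.793 and 0.440 FPKM with TWEAK and at 0, 0.0399 and 0.129 FPKM without. Its groups did not overlap, and with no expression minimum its limma adjusted p was 0.0275. It was picked after its values were seen.

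Ccrl2, which encodes an atypical receptor that holds the chemoattractant chemerin at the cell surface, was at 0.107, 0.105 and 0.150 FPKM with TWEAK and at 0.0492, 0 and 0.0201 FPKM without. The pooled reads were 28 against 6 (ratio 5.23, 95% exact binomial interval 2.13 to 15.5), and with no expression minimum its limma adjusted p was 0.0576. In the authors' deposited table its adjusted p is 0.019.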
